A study of Mus musculus with 16 samples.

Results

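Potassium channel genes were taken as every gene whose mouse RefSeq symbol starts with Kcn, the name root of the potassium channel subunits. The probes of the array named 96 such genes out of 20145 genes named in all, through 130 of 26582 named probes, and 2 of the 98 Kcn symbols in the gene table matched no probe. The study profiled ribosome-bound RNA of the podocyte, the epithelial cell that wraps the glomerular capillary, on 16 one-colour Agilent arrays of mouse RNA, 4 in each of 4 groups. All mice were on a C57BL/6N background and carried RiboTag, an allele that gives ribosomes an HA tag after Cre recombination, together with Nphs1-Cre, so that the nephrin promoter set which cells were tagged. Normal podocyte RNA came from HA-precipitated polysomes of Nphs1-RiboTag mice, and normal glomerular RNA came from polysomes of such mice without precipitation. Injured podocyte RNA came from Nphs1-RiboTag-NEP25 mice 4 or 7 days after a single tail vein injection of 0.625 ng LMB2 per g body weight. The NEP25 transgene places human CD25 on the podocyte surface, where LMB2, an immunotoxin made of a CD25-binding antibody fragment and a bacterial toxin, can bind. No NEP25 mice without LMB2 were among these samples, so the allele and the toxin entered together, and no label tells if an array stands for 1 animal or a pool, so the p-values measure the spread between these samples, which may be technical.

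Potassium channels let potassium leave or enter the cell and set the membrane potential. Voltage-gated pores open on depolarisation, calcium-activated pores on a rise of cytosolic calcium, inward rectifiers pass current mainly inward, and tandem-pore channels leak at rest, while auxiliary subunits change the gating of pores they bind. In the nephron, inward rectifiers recycle and secrete potassium, and in podocytes the large-conductance calcium-activated channel has been described beside the slit diaphragm.

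Levels are given as the log2 processed signal relative to the 75th percentile of the same array, so that 0 is a bright gene of that array, and levels of different genes come from different probes and are not given as a comparison. The scanner files marked 49.3% to 57.5% of spots as well above background and no spot as saturated. The labelled cell type was borne out by its markers in the normal samples: all 10 podocyte markers tested, Nphs1 among them, were higher in precipitated than in unprecipitated RNA, with a median log2 difference of 2.35. The summed podocyte markers were at 11.1 to 11.2 in normal podocyte RNA, 9.44 to 9.82 in glomerular RNA, 10.79 to 11.11 at day 4 and 10.35 to 10.6 at day 7. Of the other cell types' markers, 8 of 8 endothelial, 8 of 8 mesangial and smooth muscle, 6 of 6 proximal tubule, 5 of 6 distal nephron and 5 of 6 leukocyte genes were lower in podocyte RNA, and none of them was below background on every normal podocyte array. The summed proximal tubule markers were highest, within each podocyte group, on normal replicate 4 (5.75), day 4 replicate 1 (6.51) and day 7 replicate 4 (6.76), against 2.74 to 4.3 on the other 9 podocyte arrays and 6.89 to 8.24 on the glomerular arrays. All 8 normal arrays lay on one slide and all 8 LMB2 arrays on another, so slide and injury cannot be told apart when injured podocytes are set against normal ones, while podocyte against glomerular RNA and day 7 against day 4 are each comparisons within a slide.

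By the probe that stood for each gene, 32 of the 96 genes were well above background on all 16 arrays and 25 on no array. The number above background on all 4 arrays of a group was 47 in glomerular RNA, 35 in normal podocyte RNA, 37 at day 4 and 36 at day 7. A probe entered the test if some group had it well above background on each of its 4 arrays, which left 51 genes tested and 45 not. The 51 comprised 18 of 40 voltage-gated pore subunits, 6 of 12 auxiliary subunits, 6 of 12 subunits of calcium- or sodium-activated channels, 9 of 15 inward rectifiers, 10 of 14 tandem-pore channels, the regulator Kcnrg and 1 of 2 noncoding genes. Among those not tested was Kcnma1, the pore of the large-conductance calcium-activated channel, both of whose probes were above background on none of the 16 arrays.

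Normal podocyte RNA held a small group of potassium channel genes at higher levels than glomerular RNA, and more than that number at lower levels. Of the 51 genes tested, 13 were higher in podocyte RNA (25.5%, beside 51.6% of all 14565 genes tested) and 28 lower (54.9%, beside 27.5%), by limma with an adjusted p under 0.05. The other 10 passed in neither direction, where 79.1% of all genes passed in one or the other. The median log2 difference was -0.84 (-0.62 with bounds, explained next, for genes at background in one group), against 0.38 over all genes tested. By fold, 10 were at least 2-fold higher (19.4% of all genes were) and 23 at least 2-fold lower (21.6%). The filter shaped these counts: 9 of the 28 lower genes were tested through a probe above background on no normal podocyte array, which could enter only through the glomerular arrays. Kcnt1, also lower and above background on 2 of 4 normal podocyte arrays, entered only through the glomerular arrays as well. Groups did not overlap for 37 of the 51 genes, beside 73.0% of all genes. Where the tested probe was below background on all arrays of a group, the difference is given as a bound, the brighter group's mean over the dimmer group's detection floor (on each array the lowest signal among probes well above background, or the probe's own where higher). Such bounds hold on this scale only: with normexp background correction, which adds a constant to every signal, differences of dim genes shrank (Kcnk10 from 3.09 to 0.61, Kcnmb1 from -4.4 to -0.84, Kcne4 from -3.68 to -1.03, Kcns3 from -3.26 to -0.57, Kcnj13 from -3.13 to -0.45 and Kcnj14 from -2.56 to -0.32), though these 6 kept the call. In RNA from many cells, fewer cells of a type and less RNA per cell cannot be told apart, nor, here, less recovery on ribosomes.

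**Figure D1:**
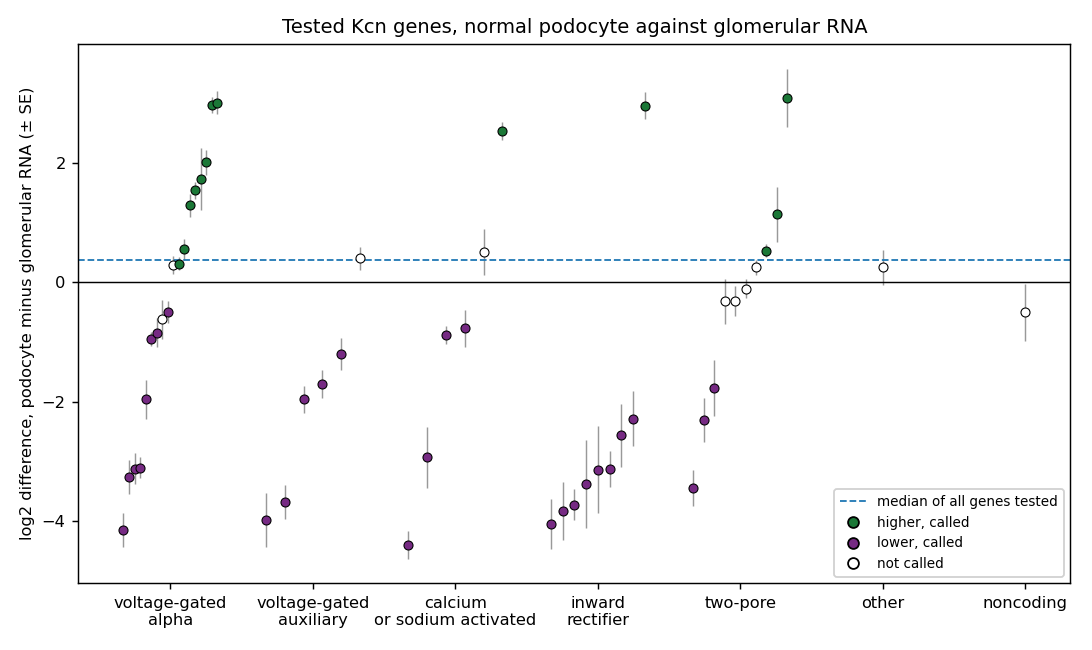
Log2 difference between normal podocyte and glomerular RNA (vertical axis, ± SE, 4 arrays a group) for the 51 tested genes, arranged by channel class; green and purple points passed limma at an adjusted p under 0.05 and white points did not, and the dashed line is the median of all genes tested. Genes at background in one group are drawn at their measured difference and not at their bound. Of the 9 inward rectifiers, 8 were lower and 1, Kcnj12, was higher, while voltage-gated pore subunits were split at 8 higher and 8 lower of 18.

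Of the 18 voltage-gated pore subunits tested, 8 were higher (44.4%, beside 51.6% of all genes) and 8 lower (44.4%, beside 27.5%). Among the lower ones, Kcns3 and Kcnq5 entered the test only through the glomerular arrays. Kcnf1 encodes an electrically silent subunit that forms no channel alone and modifies other voltage-gated pores. It stood at 3.49, 3.27, 2.76 and 3.08 on the normal podocyte arrays and 0.15, 0.40, 0.09 and 0.09 on the glomerular arrays. The groups lay far apart, and the log2 difference was 2.97 ± 0.14 (SE, adjusted p = 3.5e-10), or 7.82-fold. Kcng2, another silent subunit, stood at 2.15, 1.86, 1.65 and 1.63 in podocyte RNA against -1.2, -0.96, -1.07 and -1.53 in glomerular RNA. Its difference was 3.01 ± 0.19, or 8.07-fold (adjusted p = 4.51e-09). A further silent subunit, Kcns3, was above background on no podocyte array and on all 4 glomerular arrays, at least 4.0-fold lower in podocyte RNA.

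Kcnh3, a slowly activating channel of the ether-a-go-go class, was higher by 2.01 ± 0.21 (adjusted p = 7.26e-07), with podocyte arrays at 0.56 to 1.36 and glomerular arrays at -1.38 to -0.36. Kcnc1, a fast Kv3 pore, was higher by 1.54 ± 0.14 and Kcnd1, an A-type Kv4 pore, by 1.29 ± 0.19, and in both the groups did not overlap. Of 3 Kcnc1 probes 1 was tested, and the others were above background on no array. All Kcnc1 values, here and after LMB2, thus rest on 1 probe. Kcna3 and Kcnh4 were also higher, by 0.55 ± 0.17 and 0.31 ± 0.11, the latter below the median shift of all genes. On the other side, Kcnd3, another A-type pore, was lower with a log2 difference of -3.12, and the tested probe of Kcnq5, a Kv7 pore, was above background on all 4 glomerular arrays and no podocyte array, at least 2.11-fold lower in podocyte RNA. A second Kcnq5 probe, not tested, was above background on 1 normal podocyte array and no glomerular array.

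Kcna6 encodes Kv1.6, a delayed rectifier. Its level was 3.01, 0.95, 3.12 and 2.61 on normal podocyte arrays, 1.02, -0.21, 1.34 and 0.60 on glomerular arrays, 1.88, 2.36, 2.48 and 2.00 at day 4, and -2.06, -0.56, 0.10 and -0.09 at day 7. Normal podocyte replicate 2 was the lowest of its group and fell below the highest glomerular array, as glomerular replicate 2 was the lowest of its own. The difference between podocyte and glomerular RNA was 1.73 ± 0.52, or 3.33-fold (adjusted p = 0.00662). At day 4 the difference from normal podocytes was -0.24 ± 0.52 and did not pass the test (adjusted p = 0.757). At day 7 all 4 arrays lay below every normal podocyte and every day 4 array, with differences of -3.08 ± 0.52 from normal (8.43-fold, adjusted p = 0.000146) and -2.83 ± 0.52 from day 4 (7.13-fold, adjusted p = 0.000965). The order of the means was thus normal podocyte (2.42), day 4 (2.18), glomerular (0.69) and day 7 (-0.65), and the first pair did not differ beyond its spread. A second Kcna6 probe was above background on no array, so these values rest on 1 probe.

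**Figure D2:**
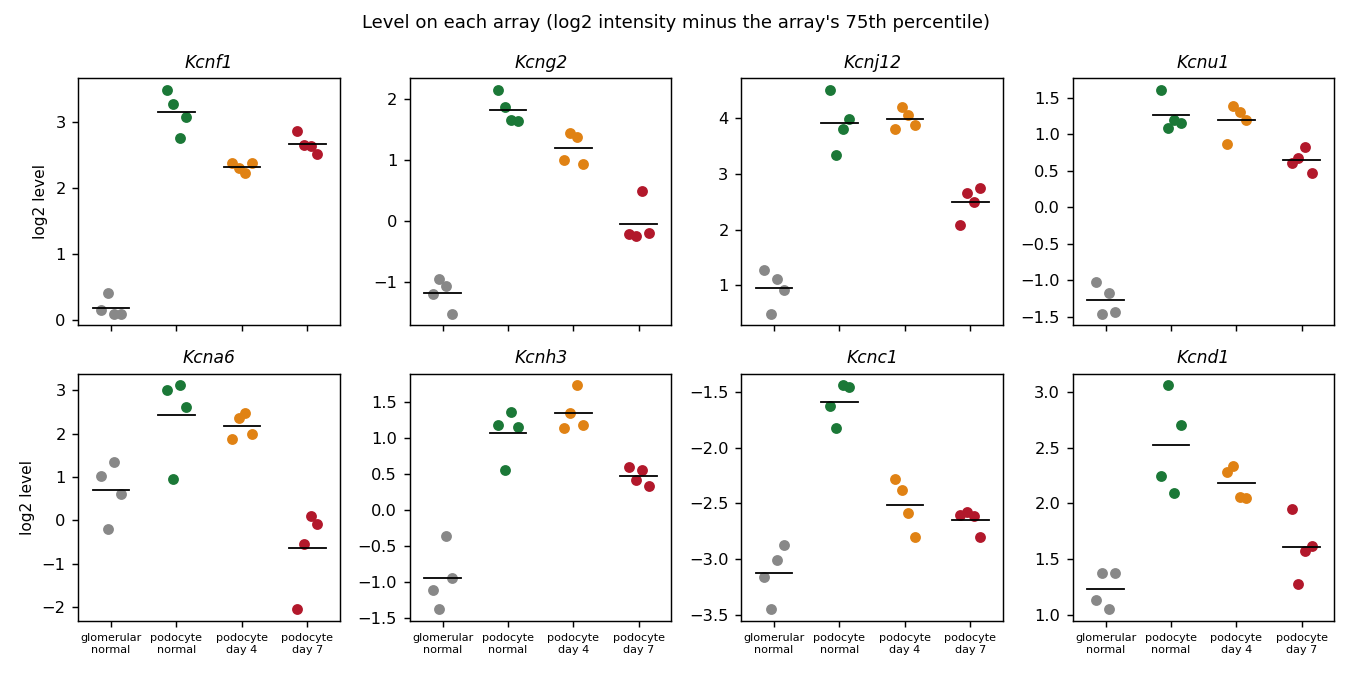
Log2 level on each array (vertical axis, one scale per gene) of 8 genes higher in normal podocyte than in glomerular RNA, by group of 4 arrays; bars are group means. Kcng2, Kcnj12, Kcna6, Kcnu1, Kcnh3 and Kcnd1 sit lower at day 7 than at day 4, while Kcnf1, Kcnc1 and Kcng2 are already below all normal podocyte arrays at day 4.

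Outside the voltage-gated class, 5 genes were higher in podocyte RNA. Kcnj12, an inward rectifier of the strongly rectifying Kir2 kind, stood at 4.51, 3.33, 3.81 and 3.98 in podocyte RNA and 1.27, 0.49, 1.11 and 0.92 in glomerular RNA, a difference of 2.96 ± 0.23, or 7.78-fold (adjusted p = 3.23e-08). Kcnu1, the alkali-activated relative of the calcium-activated pores known from sperm, stood at 1.09 to 1.61 against -1.46 to -1.02, a difference of 2.54 ± 0.15, or 5.8-fold (adjusted p = 2.34e-09). Kcnk10 encodes TREK-2, a tandem-pore channel opened by stretch and lipids. It was above background on 3 of 4 normal podocyte arrays (-3.88, -3.12, -2.47 and -4.18) and on no glomerular array, at least 3.25-fold higher (adjusted p = 3.86e-05). Kcnk4, its mechanosensitive relative TRAAK, was higher by 0.53 ± 0.11 with no overlap (-0.74 to -0.51 against -1.23 to -1.11). Kcnk7, a tandem-pore subunit with no known current, was above background on 1 normal podocyte and no glomerular array, too dim for a bound. It is counted among the higher genes (adjusted p = 0.0346), but the call was lost with replicate number as a block (adjusted p = 0.0539), under normexp (0.133), under quantile normalization (0.0905) and in 5 of the 8 fits without a single array (normal podocyte replicate 1 or 3, glomerular replicate 1, 2 or 4).

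Of the 9 inward rectifiers tested, 8 were lower (88.9%, beside 27.5% of all genes), and the median over the 9, Kcnj12 included, was -3.14. Kcnj13, Kcnj14 and Kcnj2 entered the test only through the glomerular arrays. Their direction was thus set by the filter, and the class count and median rest in part on it. Kcnj1 encodes ROMK, the secretory potassium channel of the thick ascending limb and collecting duct. It stood at 1.35, 0.82, 0.89 and 1.28 in normal podocyte RNA and 5.71, 4.67, 4.76 and 5.39 in glomerular RNA, 16.5-fold lower in podocyte RNA (log2 difference -4.05 ± 0.42, adjusted p = 6.15e-07). Kcnj10, the basolateral Kir4.1 of the distal nephron, differed by -3.83 ± 0.48, and Kcnj16, which joins it as Kir5.1, by -3.38 ± 0.74. Kcnj5, a G-protein-gated rectifier, differed by -3.72 ± 0.26 and Kcnj15, the Kir4.2 of the proximal tubule, by -3.14 ± 0.73. In these 5 genes no normal podocyte array reached the lowest glomerular array. By the tested probes, Kcnj13 was at least 2.68-fold lower, Kcnj14 at least 1.48-fold and Kcnj2 at least 1.29-fold. None of the 3 had a probe above background on a normal podocyte array. A second kept Kcnj13 probe gave a bound of 1.61-fold. A second Kcnj14 probe, not tested, was above background on no normal podocyte or glomerular array, with means of -6.2 and -6.26.

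Kcnj15 and Kcnj16 varied among podocyte arrays of one group. Kcnj15 stood at -0.73, -0.35, -0.51 and 0.78 on the normal podocyte arrays, 1.39, -2.22, -1.73 and -1.04 at day 4, and -0.53, -0.52, -0.51 and 1.89 at day 7. Kcnj16 stood at 1.03, 1.39, 1.53 and 2.58, then 3.58, 0.44, 0.88 and 0.79, then 1.95, 2.50, 2.02 and 5.27. In both genes the highest array of each podocyte group was the one highest in proximal tubule markers, which did not always hold for Kcnj1, Kcnj10 and Kcnj5. Distal nephron markers, summed, were at 6.34 to 7.1 on glomerular arrays and 2.59 to 3.3 on normal podocyte arrays, and their part in the result was not tested. Without those 3 podocyte arrays, a choice made after seeing the data, the differences from glomerular RNA were -3.47 for Kcnj15 and -3.69 for Kcnj16, slightly larger than with them. Kcnj16 at day 7 then became a call against normal podocytes, at 0.84 (adjusted p = 0.0144), where it had been 1.30 ± 0.74 (adjusted p = 0.147) with all arrays.

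**Figure D3:**
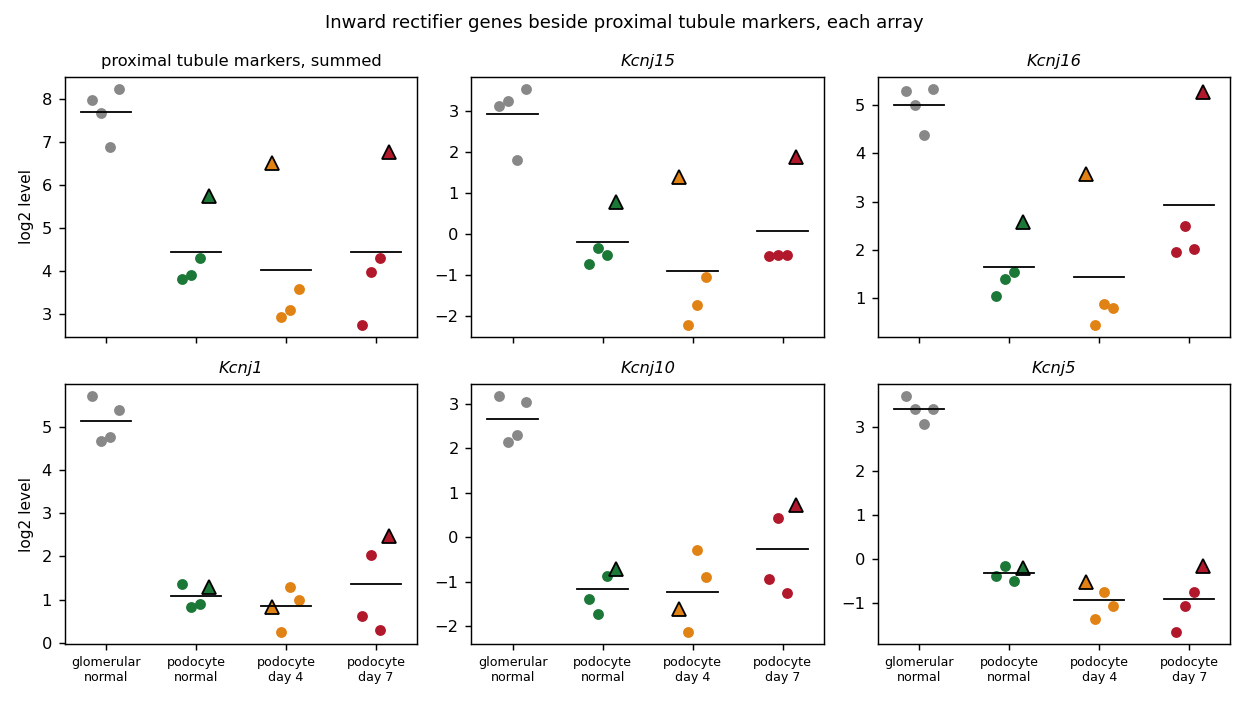
Log2 of the summed proximal tubule markers and log2 level of 5 inward rectifier genes on each array, by group (vertical axes, one scale per panel); triangles mark the podocyte array of each group highest in proximal tubule markers, and bars are group means. In Kcnj15 and Kcnj16 the triangles are the highest podocyte arrays of their groups, up to 5.27 for Kcnj16 at day 7, and in Kcnj1, Kcnj10 and Kcnj5 they are not always so.

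Auxiliary subunits were lower in podocyte RNA in 5 of 6 cases (83.3%, beside 27.5% of all genes) and higher in none. Of the lower ones, Kcne3 and Kcne4 entered the test only through the glomerular arrays. Kcnq1, the Kv7.1 pore, and Kcne3, one of the small single-span subunits known to hold it open, were both on the low side. Kcnq1 stood at -3.03, -2.89, -2.85 and -2.75 in podocyte RNA and 1.52, 1.15, 0.89 and 1.53 in glomerular RNA, 17.8-fold lower (log2 difference -4.15 ± 0.28, adjusted p = 8.39e-09). The tested Kcne3 probe was above background on 4 glomerular and 0 podocyte arrays, at least 5.03-fold lower. A second Kcne3 probe, which the filter left out, was above background on 3 of 4 arrays of either normal group (means -4.33 in podocyte and -3.23 in glomerular RNA), and without the filter it stood for the gene, at -1.1 and no call (adjusted p = 0.0531). Kcne4, an inhibitory relative, was above background on glomerular arrays only and at least 6.43-fold lower. Kcnab1 and Kcnab3, cytosolic beta subunits, were lower with log2 differences of -1.7 and -1.2, and Kcnip3, a calcium-binding Kv4 partner, with one of -1.96.

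Among calcium- and sodium-activated channels, 4 of 6 genes were lower (66.7%, beside 27.5% of all genes). Of these, Kcnmb1, Kcnn4 and Kcnt1 entered the test only through the glomerular arrays. Kcnmb1, the beta1 subunit that tunes the large-conductance channel in smooth muscle, was on 4 glomerular arrays at -3.26 to -2.20 and on no podocyte array, at least 4.67-fold lower (adjusted p = 8.45e-10). Kcnn4, the intermediate-conductance channel, was at least 3.0-fold lower, while Kcnn3, a small-conductance channel, differed by -0.88 and the sodium-activated Kcnt1 by -0.77. Of the tandem-pore channels, Kcnk6 (TWIK-2) was 10.8-fold lower, at -2.49 to -0.97 against 1.1 to 1.88 (log2 difference -3.44 ± 0.30, adjusted p = 1.05e-07). Kcnk3 (TASK-1), an acid-sensitive leak channel, differed by -2.3 ± 0.37 and Kcnk5 (TASK-2), known from the proximal tubule, by -1.77 ± 0.47.

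At day 4 after LMB2, a few potassium channel genes rose steeply, while the median of the class was that of all genes. Of the 51 genes, 5 rose (9.8%, beside 12.4% of all genes tested) and 5 fell (9.8%, beside 19.9%), 41 passed in neither direction (32.3% of all genes passed in one or the other), and the median difference was -0.12 (-0.10 with bounds), as over all genes. At least 2-fold changes numbered 4 up and 2 down, beside 6.94% and 1.33% of all genes. Of the genes that rose, Kcnmb3, Kcnk10 and Kcnk7 entered the test only through injured arrays, so the filter favoured that direction. Groups did not overlap for 11 genes, beside 33.1% of all genes. The median with bounds leaves out 7 genes below background on every array of both groups, which are counted among those that passed in neither direction.

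Kcnmb3, the beta3 subunit of the large-conductance calcium-activated channel, rose from below background. It stood at -5.78, -5.41, -5.98 and -6.41 on normal podocyte arrays, none of them above background, and at -1.77, -1.46, -0.84 and -0.41 at day 4 and -1.90, -2.55, -2.10 and -2.44 at day 7, all above background. The rise was at least 13.2-fold at day 4 (adjusted p = 4.68e-07) and at least 6.04-fold at day 7 (adjusted p = 2.75e-06). The glomerular arrays were low as well, with 1 of 4 above background. Kcnk10, already podocyte-high, stood at 0.87, 0.26, 0.75 and 1.15 at day 4 and -0.59, -0.68, -0.59 and -0.84 at day 7, against -4.18 to -2.47 in normal podocytes. It rose 18.0-fold at day 4 (log2 difference 4.17 ± 0.49, adjusted p = 1.61e-05) and 6.68-fold at day 7 (2.74 ± 0.49, adjusted p = 0.000232). Kcnk7 stood at -6.81 to -4.89 in normal podocytes, -3.09 to -1.37 at day 4 and -3.56 to -2.97 at day 7, above background on 1, 4 and 4 arrays. Its rise was 3.78 ± 0.46 at day 4 (adjusted p = 2.56e-05) and 2.64 ± 0.46 at day 7 (adjusted p = 0.000213). In all 3 genes every injured array lay above every normal podocyte array. Their probes entered the test only through the injured arrays. The filter thus favoured a rise, and these calls and the lack of overlap rest in part on it. The tested probe of Kcnj14, an inward rectifier of the Kir2 kind, was above background on 2 of 4 day 4 arrays and no normal podocyte or day 7 array, at least 1.56-fold higher at day 4 (adjusted p = 0.00176). A second Kcnj14 probe, not tested, was instead above background on 2 of 4 day 7 arrays and on no array of the other groups, with means of -6.2 in normal podocytes, -4.96 at day 4 and -4.64 at day 7. Kcnn3 rose by 0.60 ± 0.15 (adjusted p = 0.00661) from -3.72 to -3.52 in normal podocytes to -3.15 to -2.78. Under normexp the day 4 rises were smaller, at 1.56 for Kcnmb3, 2.51 for Kcnk10, 1.17 for Kcnk7 and 0.56 for Kcnj14, and all 4 stayed called.

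**Figure D4:**
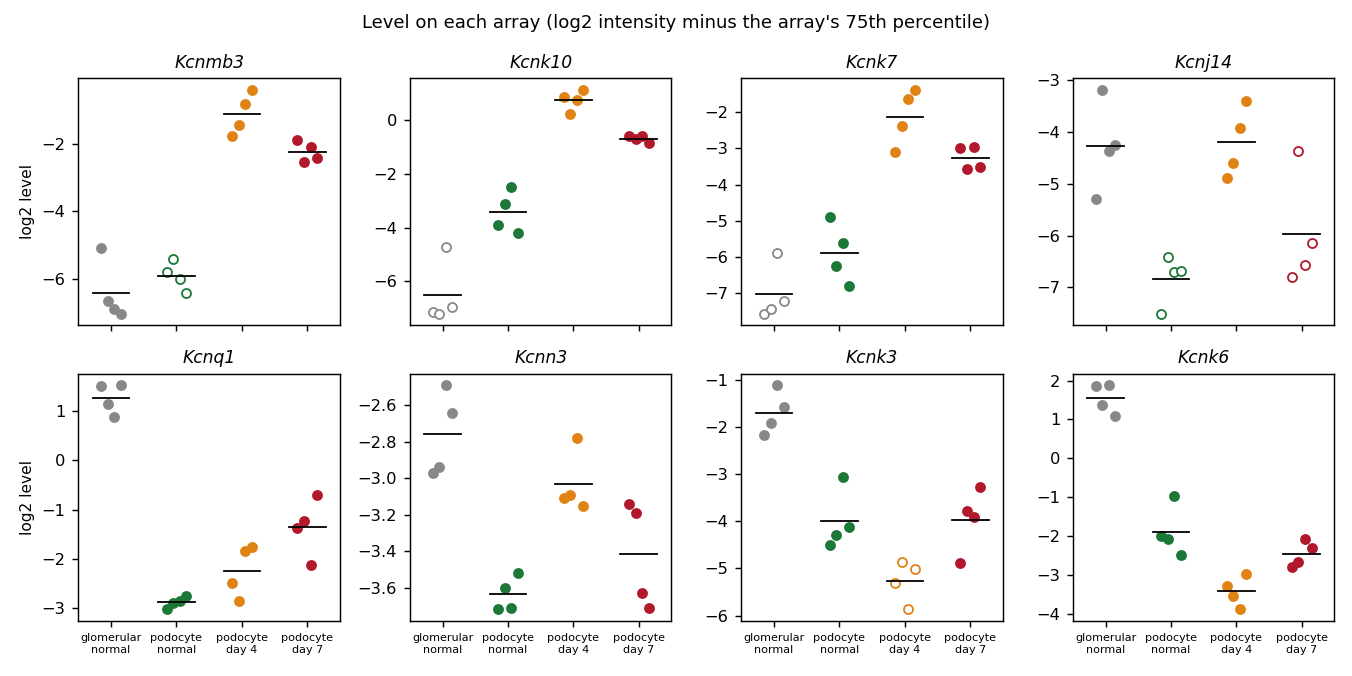
Log2 level on each array (vertical axis, one scale per gene) of 8 genes that changed after LMB2, by group of 4 arrays; bars are group means, and open circles mark groups with no array above background. Kcnmb3, Kcnk10 and Kcnk7 are highest at day 4 and stay above the normal podocyte arrays at day 7, Kcnn3 is higher at day 4, Kcnq1 is higher at day 7, and Kcnk3 and Kcnk6 are lowest at day 4.

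The 250 bases before the annotated starts of the genes that rose together are printed because these are the stretches a reader would search for shared promoter letters. They come from RefSeq on GRCm38.p6, are written 5′ to 3′ on the gene's strand and end at the base before the start, and capitals mark a GC box (GGGCGG or its reverse complement), the only motif searched that any of them held. Kcnmb3 lies at chr3:32491970-32492219 on the minus strand, the Kcnk10 starts at chr12:98575128-98575377 and chr12:98578214-98578463 on the minus strand, and Kcnk7 at chr19:5704221-5704470 on the plus strand.
Kcnmb3: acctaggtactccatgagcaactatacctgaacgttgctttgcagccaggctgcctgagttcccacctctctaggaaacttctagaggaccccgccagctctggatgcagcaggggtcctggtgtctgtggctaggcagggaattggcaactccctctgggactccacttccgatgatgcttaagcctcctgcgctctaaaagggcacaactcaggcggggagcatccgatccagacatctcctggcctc
Kcnk10, first start: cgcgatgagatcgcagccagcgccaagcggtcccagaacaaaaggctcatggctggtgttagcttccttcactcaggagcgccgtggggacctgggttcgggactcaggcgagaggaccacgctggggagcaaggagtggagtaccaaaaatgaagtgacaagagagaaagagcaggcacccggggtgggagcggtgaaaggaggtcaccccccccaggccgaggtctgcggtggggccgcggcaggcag
Kcnk10, second start: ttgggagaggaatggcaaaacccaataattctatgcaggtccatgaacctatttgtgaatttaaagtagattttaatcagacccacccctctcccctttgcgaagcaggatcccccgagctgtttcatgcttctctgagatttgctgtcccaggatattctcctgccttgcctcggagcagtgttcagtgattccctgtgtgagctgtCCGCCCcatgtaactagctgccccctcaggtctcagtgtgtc
Kcnk7: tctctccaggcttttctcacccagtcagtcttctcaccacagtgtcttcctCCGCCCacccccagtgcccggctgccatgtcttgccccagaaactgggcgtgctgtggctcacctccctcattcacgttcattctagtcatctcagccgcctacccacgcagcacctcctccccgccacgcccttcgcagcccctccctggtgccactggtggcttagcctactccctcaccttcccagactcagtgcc

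The letters searched on both strands were AP-1 (TGANTCA), CRE (TGACGTCA), Egr (GCGTGGGCG), an E-box (CAGCTG), the GC box and a TATA box (TATAAA). Counting -1 as the base before the start, a GC box began at position -42 of the second Kcnk10 start and another at -199 of Kcnk7, and Kcnmb3 and the first Kcnk10 start held none of the 6 motifs. Over the 32851 windows of that length, 32.7% held a GC box, 13% the E-box, 12.4% the TATA box, 6.75% AP-1, 1.55% CRE and 0.536% Egr. Among the 97 windows of 72 potassium channel genes, 43 held a GC box, 22 the E-box, 4 AP-1, 3 the TATA box and none CRE or Egr. The median share of G and C letters was 58.8% in these windows and 52.4% in all windows, and its part in the counts was not tested. A match is a string of letters and not a measured site.

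The genes that fell at day 4 were Kcnk6, Kcnk3, Kcnc1, Kcnf1 and Kcng2. Kcnk6 fell by 1.53 ± 0.30 on the log2 scale (adjusted p = 0.00144), from -2.49 to -0.97 in normal podocytes to -3.88 to -2.97. Kcnk3 went from above background on all 4 normal podocyte arrays to none, at least 1.49-fold lower (adjusted p = 0.017), and this call was lost without normal replicate 3 or day 4 replicate 3 (log2 differences of -0.96 and -1.07) and under normexp, where the difference was -0.09 (adjusted p = 0.647). Kcnc1 fell by 0.93 ± 0.14 (adjusted p = 0.000187) and Kcnf1 by 0.83 ± 0.14 (adjusted p = 0.000332), neither overlapping the normal arrays, though a second, dimmer Kcnf1 probe differed by -0.37 and did not pass (adjusted p = 0.117). Kcng2 fell by 0.64 ± 0.19 (adjusted p = 0.0186), a call lost in 3 of 8 fits without a single array, namely normal replicate 1 and day 4 replicates 1 and 4 (adjusted p up to 0.0625). The call was also lost without the 3 podocyte arrays highest in proximal tubule markers (limma, adjusted p = 0.0561). A second, dimmer Kcng2 probe differed by -0.53 and did not pass (limma, adjusted p = 0.0549). Kcnk3, Kcnk6 and Kcng2 also lost the call with replicate number as a block.

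At day 7, Kcna6, Kcng2 and Kcnj12 fell most, and Kcnmb3, Kcnk10 and Kcnk7 were still above the normal podocytes. Of the 51 genes, 7 were higher than in normal podocytes (13.7%, beside 21.6% of all genes tested) and 8 lower (15.7%, beside 36.7%), and 36 passed in neither direction, where 58.4% of all genes passed in one or the other. The median difference was 0.03, against -0.14 over all genes. With bounds it was -0.16, which leaves out 9 genes below background on every array of both groups. Those 9 are counted among the genes that passed in neither direction. At least 2-fold changes numbered 5 up and 4 down, beside 11.9% and 7.51% of all genes, and groups did not overlap for 13, beside 50.6%. The count of higher genes depended on the background correction, being 16 higher and 9 lower under normexp. It also rests in part on the filter: Kcnmb3, Kcnk10 and Kcnk7 entered the test only through injured arrays, and Kcnrg only through day 7 arrays. The genes that fell were Kcna6, Kcng2, Kcnj12, Kcnc1, Kcnd1, Kcnu1, Kcnh3 and Kcnf1, and this comparison uses the same normal podocyte arrays as the one with glomerular RNA, so the values of both stand side by side and no overlap is tested. Podocyte markers moved in the same direction, with 9 of 10 lower at day 7 (Nphs1 by 1.45, adjusted p = 2.33e-06), and their part in the result was not tested.

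Beside Kcna6, the largest falls were of Kcng2 and Kcnj12. Kcng2 stood at -0.22, -0.26, 0.48 and -0.20 at day 7, below its 0.93 to 1.44 at day 4 and 1.63 to 2.15 in normal podocytes, a fall of 1.87 ± 0.19 from normal (3.66-fold, adjusted p = 1.48e-06). Kcnj12 stood at 2.08, 2.65, 2.49 and 2.75, below its 3.80 to 4.20 at day 4 and 3.33 to 4.51 in normal podocytes, a fall of 1.42 ± 0.23 (2.67-fold, adjusted p = 0.000105). Neither set of day 7 arrays overlapped the earlier groups, though both stayed above the glomerular arrays. Kcnc1 fell by 1.06 ± 0.14, Kcnd1 by 0.92 ± 0.19, Kcnu1 by 0.62 ± 0.15, Kcnh3 by 0.59 ± 0.21 and Kcnf1 by 0.48 ± 0.14. The Kcnf1 call was lost under quantile normalization (-0.29, adjusted p = 0.0542) and with the mean of its probes (-0.25, adjusted p = 0.155), and its second probe differed by -0.02 (adjusted p = 0.926). The Kcnh3 call (adjusted p = 0.0272) was lost under quantile normalization (adjusted p = 0.0671), with the array median (0.0744), without the 3 arrays highest in proximal tubule markers (0.12) and without normal replicate 1, 3 or 4 or day 7 replicate 2 or 4, with differences of -0.76 to -0.49 over the 8 fits. The 250 bases before the starts of Kcna6 (chr6:126740675-126740924, minus strand) and Kcnj12 (chr11:61065554-61065803, plus strand), shown for the 2 largest falls that had such a window, held none of the 6 motifs.
Kcna6: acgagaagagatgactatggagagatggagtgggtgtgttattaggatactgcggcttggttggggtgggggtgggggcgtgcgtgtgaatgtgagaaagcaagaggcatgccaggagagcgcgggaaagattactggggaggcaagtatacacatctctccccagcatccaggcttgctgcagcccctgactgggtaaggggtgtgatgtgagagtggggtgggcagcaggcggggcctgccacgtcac
Kcnj12: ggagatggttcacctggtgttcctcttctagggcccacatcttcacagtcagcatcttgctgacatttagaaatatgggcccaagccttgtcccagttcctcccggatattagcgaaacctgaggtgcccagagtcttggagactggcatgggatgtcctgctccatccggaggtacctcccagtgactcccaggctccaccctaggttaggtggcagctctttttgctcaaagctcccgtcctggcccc

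Kcnq1, which was lower in normal podocyte than in glomerular RNA, rose at day 7. Kcnq1 stood at -1.37, -1.23, -2.12 and -0.71 at day 7 against -3.03 to -2.75 in normal podocytes, without overlap, a rise of 1.52 ± 0.28 (2.88-fold, adjusted p = 0.000312). Day 4 lay between, at -2.85 to -1.77, and its difference of 0.64 ± 0.28 did not pass (adjusted p = 0.0957). Kcnrg, which interferes with the assembly of voltage-gated channels, rose by 0.90 ± 0.29 (adjusted p = 0.0144), a call lost under quantile normalization (0.59, adjusted p = 0.13) and without normal replicate 4 (0.72, adjusted p = 0.0503). The tested Kcnrg probe entered the test only through the day 7 arrays, so the filter favoured this rise. A second Kcnrg probe, not tested, was above background on no normal podocyte or day 7 array, with means of -5.69 and -5.48. Kcna4, an A-type Kv1 pore, rose by 0.41 ± 0.15 (adjusted p = 0.0269). Of 8 mesangial and smooth muscle markers, 4 were higher too at day 7, Tagln by 6.01, Des by 3.02, Cnn1 by 2.77 and Acta2 by 1.59, while Pdgfrb, Itga8, Gata3 and Myh11 were not called (-0.48 to 0.45). Their summed level was 9.64 to 10.09 against 4.56 to 5.12 in normal podocytes, most of it Tagln (means 9.86 and 3.86), and their part in the rises of Kcn genes was not tested. Kcnmb1, whose known home is smooth muscle, stayed below background on all day 4 and day 7 arrays.

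Within the injured arrays, which share a slide, 5 genes were higher at day 7 than at day 4 (9.8%, beside 13.2% of all genes) and 9 lower (17.6%, beside 20.7%), and 37 passed in neither direction, where 34.0% of all genes passed in one or the other. At least 2-fold differences numbered 2 up and 6 down, beside 6.17% and 2.62% of all genes, and groups did not overlap for 13, beside 34.2%. The median was 0.06 (0.0 with bounds), against -0.07 over all genes. The median with bounds again leaves out 7 genes below background on every array of both groups, none of them called. Both injured groups are also set against the same normal arrays above, so these are not separate evidence. After Kcna6, the falls that kept their call under all 17 alternatives were Kcnj12 by 1.49 ± 0.23 (adjusted p = 0.000273), Kcng2 by 1.23 ± 0.19 (adjusted p = 0.000281), Kcnh3 by 0.87 ± 0.21 (adjusted p = 0.00614) and Kcnu1 by 0.55 ± 0.15 (adjusted p = 0.0109). Kcnd1 fell by 0.58 ± 0.19 (adjusted p = 0.0315) but lost the call under quantile normalization (adjusted p = 0.0716), with the replicate block (0.0578), without the 3 arrays highest in proximal tubule markers (0.113) and without day 4 replicate 1 or 2 or day 7 replicate 2, 3 or 4, at -0.69 to -0.47 over the 8 fits.

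The early risers came down from day 4 to day 7 with less certainty. Kcnk10 fell by 1.43 ± 0.49 (2.69-fold, adjusted p = 0.0347), and although the 4 day 7 arrays all lay below the 4 day 4 arrays, the call was lost in 7 of 8 fits without a single array (every one but day 4 replicate 2), with differences of -1.59 to -1.30. Kcnmb3 fell by 1.13 ± 0.39 (adjusted p = 0.0393), again without overlap, and lost the call in 6 of 8 such fits (all but day 4 replicate 1 and day 7 replicate 1), at -1.35 to -0.89. Both calls were also lost without the filter on dim probes (adjusted p = 0.0503 and 0.0568) and without the 3 arrays highest in proximal tubule markers (0.111 and 0.0544), and that of Kcnmb3 with the replicate block (0.067). Kcnk7 differed by -1.14 ± 0.46 and did not pass (adjusted p = 0.071). The tested Kcnj14 probe was lower at day 7 (adjusted p = 0.0188), but the call was lost without day 4 replicate 4 or day 7 replicate 1 or 3 (adjusted p up to 0.0591), with the replicate block (0.0809) and under normexp, where the difference was -0.16 (adjusted p = 0.399). Since the second Kcnj14 probe was above background at day 7, no bound is given for the gene here. Upward, Kcna4 rose by 0.53 ± 0.15 (adjusted p = 0.0128), while Kcnk3 returned to detection on 3 of 4 arrays, at least 1.52-fold higher. Without the 3 arrays highest in proximal tubule markers, Kcnk3 (1.06, adjusted p = 0.0909) was not called, nor was it under normexp (0.27, adjusted p = 0.146). Kcnk6 rose by 0.96 ± 0.30 and Kcnq1 by 0.88 ± 0.28, and each lost the call in 4 of 8 fits without a single array. For Kcnk6 these left out day 4 replicate 2 or 3 or day 7 replicate 3 or 4 (0.80 to 1.1 over the 8 fits), and for Kcnq1 day 4 replicate 1 or 2 or day 7 replicate 2 or 4 (0.67 to 1.14). Under normexp neither was called, at 0.40 for Kcnk6 and 0.45 for Kcnq1, nor with the replicate block or without the 3 tubule-high arrays, and Kcnq1 was not called with only the 8 arrays compared (adjusted p = 0.0841).

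Kcne1l, a small auxiliary subunit also called Kcne5, had 2 probes that disagreed. The brighter probe, used in the counts, was above background on all 16 arrays and did not pass, with differences of 0.40 ± 0.19 between podocyte and glomerular RNA, -0.33 ± 0.19 at day 4 and -0.21 ± 0.19 at day 7. With replicate number as a block, which pairs podocyte with glomerular arrays, the first of these was called (0.40, adjusted p = 0.00718), as under normexp (0.23, adjusted p = 0.0163) and quantile normalization (0.66, adjusted p = 0.0117). The dimmer probe stood at -5.92, -6.98, -6.28 and -6.58 in normal podocytes, none above background, at -3.50, -4.47, -5.34 and -5.39 in glomerular RNA, at -4.53, -4.37, -3.57 and -4.95 at day 4, and at -1.22, -0.82, -1.31 and -1.81 at day 7, where all 4 were above background. Its day 7 arrays lay above every other array, and its rise from normal podocytes was at least 11.8-fold at day 7 (adjusted p = 1.25e-07, limma on all kept probes) and at least 1.4-fold at day 4, where 1 array was above background (adjusted p = 0.00122). The dimmer probe was kept only through the day 7 arrays, where it was high. Its day 7 rise and lack of overlap thus rest in part on the filter. With the mean of both probes in place of the brighter, Kcne1l was called at -0.68 between podocyte and glomerular RNA, 0.88 at day 4 and 2.47 at day 7. The files do not say which transcript each probe reads, so no direction is given for the gene.

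Other genes of potassium handling (pumps, cotransporters, channel partners and their kinases) were listed apart, and 31 of the 39 were tested. Of these, 7 were higher and 18 lower in podocyte than in glomerular RNA, beside 51.6% and 27.5% of all genes, with a median of -0.94 against 0.38. At day 4, 3 were higher and 2 lower, beside 12.4% and 19.9% (median -0.11 against -0.12). At day 7, 9 were higher and 6 lower, beside 21.6% and 36.7% (median 0.15 against -0.14), and against day 4, 7 were higher and 5 lower, beside 13.2% and 20.7% (median 0.18 against -0.07). Abcc8, a sulfonylurea receptor that pairs with Kir6 rectifiers, rose by 1.51 ± 0.18 at day 4 and 1.30 ± 0.18 at day 7. Abcc9, the other sulfonylurea receptor listed, went the other way at day 4, at -1.04 ± 0.29 (limma, adjusted p = 0.0141). At day 7 Abcc9 was not called (0.47 ± 0.29, adjusted p = 0.184). Neither Kir6 gene, Kcnj8 or Kcnj11, was bright enough to be tested. Slc12a2, the sodium-potassium-chloride cotransporter, rose by 1.52 ± 0.17 at day 7, and Sgk1, a kinase that acts on ion transport, by 1.59 ± 0.34. Atp1b2, a beta subunit of the sodium pump, fell by 1.21 ± 0.12 at day 7.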

How the data were processed

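RNA of 16 samples, 4 a group, was labelled with Cy3 and read on 1-colour Agilent arrays with Agilent Feature Extraction 11.5.1.1, per the submitters' processing notes. The deposited scanner files hold a processed intensity and background flags for 55681 probes, per the file headers. Each array's log2 processed intensity minus its 75th percentile was computed here. The authors also deposited a table of log2 values for 39430 probes, in which each column was an exact shift of one array (column medians -3.168 to -2.506). It matched its own array in 10 columns and another replicate of the same group in 6, and its centring is not stated in the sources used here. It served as an alternative only.

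Probes were named by matching their accession to mouse RefSeq, giving 26582 named probes. A probe was kept if some group had it well above background on each of its 4 arrays, 58 probes with a missing value were set aside, and the brightest kept probe stood for its gene. A group-means model over all 16 arrays (limma 3.58.1, R 4.3.3, 12 residual degrees of freedom) gave log2 differences, with Benjamini-Hochberg adjustment over 14565 genes and calls at an adjusted p under 0.05. The method was checked on simulated data.

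The genes named are Kcna6, members called with at least a 2-fold difference (at most 12 up and 12 down per comparison), for each class the member with the brightest probe in normal podocytes (a choice of names only), and those whose probes disagree; 1 member that meets this rule is in the counts but not reported here. Others named were chosen after their values were seen. Members and lists were chosen with earlier results of these data known. Replicate numbers paired podocyte with glomerular arrays (correlations of deviations 0.424, 0.455, 0.464 and 0.505) but not the other comparisons. Alternatives were normexp background correction, quantile normalization, the array median, no filter, the mean of probes, only the 8 arrays compared, a replicate block, the authors' table, each array left out, and, chosen after seeing the data, the 3 podocyte arrays highest in proximal tubule markers left out. The number of arrays limits precision.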

Additional observations from a re-analysis of the deposited data

Results flagged for a closer look

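Among 112 groups of 4 arrays, 1 array stood apart from the other 3 in 6 cases by Dixon's test. Groups with no array above background were counted in the 112 but could not be flagged. Chance gives about 1 in 20 of the groups that could be flagged. On day 7 replicate 4, Kcnc1 was at -2.8 (others -2.61 to -2.58), Kcnj15 at 1.89 (others -0.53 to -0.51) and Kcnj16 at 5.27 (others 1.95 to 2.5). Kcnj16 was at 3.58 on day 4 replicate 1 (others 0.44 to 0.88). Kcne1l was at -2.37 on day 7 replicate 1 (others -3.04 to -2.93) and Kcng2 at 0.48 on day 7 replicate 3 (others -0.26 to -0.2).

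The responses at day 4 and day 7, each against the normal podocyte arrays, differed for 12 named genes, which is the direct comparison of day 7 with day 4 by limma. The log2 difference was below 0 for Kcna6 (-2.83), Kcnj14 (-1.77), Kcnj12 (-1.49), Kcnk10 (-1.43), Kcng2 (-1.23), Kcnmb3 (-1.13), Kcnh3 (-0.87), Kcnd1 (-0.58) and Kcnu1 (-0.55). It was above 0 for Kcnk3 (1.3), Kcnk6 (0.96) and Kcnq1 (0.88).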

How the results depend on the processing

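Of 59 called differences of the named genes, 44 kept direction and call under all 17 alternatives, 15 lost the call under some and none reversed. Of 53 that were not called, 23 were called by some alternative, 4 of them in the other direction: Kcne1l with the mean of its probes between podocyte and glomerular RNA (-0.68), at day 4 (0.88) and at day 7 (2.47), and Kcne4 under normexp at day 7 (0.24). Counts of genes called moved as follows. With normexp, higher genes at day 7 numbered 16 and higher genes at day 7 against day 4 numbered 2. Without the filter on dim probes, higher genes at day 7 numbered 12. Without the 3 podocyte arrays highest in proximal tubule markers, these 2 counts were 11 and 2. With the replicate block, lower genes at day 4 numbered 2 and higher genes at day 7 against day 4 numbered 1; the block also ended the call of Kcnk7 between podocyte and glomerular RNA and changed the other counts by at most 1.5 times. Leaving out single arrays gave 12 to 13 higher and 26 to 28 lower genes between podocyte and glomerular RNA, 5 to 6 higher and 4 to 5 lower at day 4, 6 to 10 higher and 7 to 9 lower at day 7, and 3 to 7 higher and 5 to 8 lower at day 7 against day 4, where the lowest counts came without day 4 replicate 2 or day 7 replicate 4 (3 higher) and without day 7 replicate 3 (5 lower). The cause was not tested. The median of all genes between podocyte and glomerular RNA was 0.38, and 0.26 with quantile normalization; at day 7 it was -0.14, and -0.03 with the array median. Slide as a block could not be fitted for injured against normal arrays, because each group lay on a single slide, and adds nothing within a slide. As bounds are counted from the detection floor, a bound is small where the brighter group itself lay near that floor. Between podocyte and glomerular RNA this held for Kcnj2 (glomerular mean -4.48, bound 1.29-fold) and Kcnj14 (-4.27, 1.48-fold).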
